A study of Mus musculus with 2 samples.

Results

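The replication-dependent histone genes encode the core histones H2A, H2B, H3 and H4 and the linker histone H1 that package newly made DNA. They were taken as all probes whose gene name in the wild-type array file begins with Hist1h, Hist2h, Hist3h or Hist4h, and the same spots were read on the ob/ob array. The rule found 51 probes for 47 genes, out of 39429 probes for 31877 genes and unnamed transcripts on the array. The 47 genes comprise 6 of class H1, 14 of H2A, 11 of H2B, 8 of H3 and 8 of H4. By cluster, 34 genes belong to Hist1, which lies on mouse chromosome 13, 9 to Hist2 on chromosome 3, 3 to Hist3 on chromosome 11, and 1, Hist4h4, lies on chromosome 6.

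The arrays measured RNA from LSEC, the sinusoidal endothelium of the liver, whose perforated cells form the wall of its capillaries. One group is a wild-type mouse and the other an ob/ob mouse, which lacks functional leptin and becomes obese. Both mice were male and 8 weeks old, their livers were digested with collagenase, and the cells spent a night in serum-containing DMEM before RNA was taken. Each group holds 1 mouse and 1 array, so no difference below has a replicate check and none carries a p-value. The genetic background of the wild-type mouse is not given in the sources used here.

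These genes are transcribed mainly in S phase, when the cell copies its DNA and needs new nucleosomes. Their mRNAs are unusual among those of animals, since most end in a conserved stem-loop rather than a poly(A) tail. The stem-loop-binding protein Slbp holds that end, the U7 snRNP cuts the transcript behind it, and the mRNA is destroyed when DNA synthesis stops. Several of the genes also yield polyadenylated forms in cells that have left the cycle or are differentiating. The kit named in the labels primes from poly(A) tails by its usual protocol, and an mRNA without a tail is then poorly labelled. How far this limited the signals of the members was not tested.

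The stem-loop itself was found in the probes of 5 genes. It is shown because it marks probes that reach or pass the 3′ end of the processed mRNA. Capitals mark the 2 arms of the stem, of 6 bases each, around a loop of 4 bases, and each line reads 5′ to 3′.

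Hist1h3a: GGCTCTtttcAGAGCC

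Hist1h3g: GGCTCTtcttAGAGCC

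Hist1h3i: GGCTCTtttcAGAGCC

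Hist2h2aa1: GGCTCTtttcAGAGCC

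Hist2h2bb: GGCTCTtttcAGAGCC

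Of these 5 probes, those of the H3 genes Hist1h3a, Hist1h3g and Hist1h3i were not well above background on either array. The probe of Hist2h2aa1, an H2A gene, read 29589 in wild-type and 28400 in ob/ob (processed signal, an intensity). In that probe 38 bases follow the stem-loop, against 3 to 6 in the other 4 probes, so it runs on well past the stem-loop. Which RNA it reads was not tested. The probe of Hist2h2bb, an H2B gene, gave 31.5 in wild-type and 92.4 in ob/ob. A further 2 probes, of Hist1h2ab and Hist1h2ae, hold at least 11 bases of the stem-loop, and the first was well above background on the ob/ob array only.

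Other probes carry the letters of a polyadenylation signal, AATAAA or ATTAAA, searched on the strand of the probe. There were 4 such probes, and they are shown with the letters in capitals because that signal precedes a poly(A) tail.

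Hist1h2be: gtactgttcattATTAAAgcattcctgatt

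Hist3h2ba: cataatggtattAATAAAtttggttca

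Hist1h2ag: aggccaaggggaAATAAAaccctttatac

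Hist1h4i: ccgagtgttgggATTAAAggcgtgcgccac

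The match in Hist1h2ag lies at the end of the reading frame, and the probe of Hist1h4i reads like the mouse B1 repeat, so these letters are a description and not a mapped site. The 16-base run tgggattaaaggcgtg of the Hist1h4i probe also stood in 8 of 32851 RefSeq promoter windows. Of the 4 probes, 3 were well above background on both arrays and that of Hist3h2ba on the ob/ob array only.

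Many histone genes differ by few bases in their coding parts, so a probe can bind several mRNAs. The ends of 4 H2A reading frames are shown for that reason, with the bases that differ from the first line in capitals.

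Hist2h2aa2: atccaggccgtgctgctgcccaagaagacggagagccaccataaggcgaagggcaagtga

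Hist1h2af: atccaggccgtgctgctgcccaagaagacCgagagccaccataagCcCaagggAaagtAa

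Hist1h2ak: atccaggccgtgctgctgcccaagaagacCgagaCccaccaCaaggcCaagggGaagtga

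Hist1h2an: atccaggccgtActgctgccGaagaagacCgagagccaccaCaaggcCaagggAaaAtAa

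Against Hist2h2aa2, the probes of Hist1h2af and Hist1h2ak differ at 5 of 60 bases and that of Hist1h2an at 8. Per the file headers' build, mm9, the probe of Hist2h2aa2 lies at chr3:96049837-96049896 on the plus strand. The other probes lie on chromosome 13, that of Hist1h2af at chr13:23626113-23626172 (plus strand), that of Hist1h2ak at chr13:21845304-21845363 (minus) and that of Hist1h2an at chr13:21878695-21878754 (minus). Of the 51 histone probes, 13 list more than 1 RefSeq transcript in the file, and 9 overlap another member's probe over at least 40 bases with at least 90% identity. Values of such probes cannot be assigned to 1 gene.

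Most histone genes gave a signal in these cells. A gene is called measured where its probe was well above background on both arrays by the scanner software's own flag. By that rule 35 of 47 histone genes (74.5%) were measured, beside 18132 of 31877 (56.9%) of all genes on the array. A further 4 histone genes were above background on the ob/ob array only, none on the wild-type array only, and 8 on neither. Across all genes those counts were 2179, 273 and 11287.

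The classes differed in how many members were measured. All 8 H4 genes, 12 of 14 H2A genes, 8 of 11 H2B genes, 5 of 8 H3 genes and 2 of 6 H1 genes were measured on both arrays. The 8 genes not well above background on either array were the linker histone genes Hist1h1b, Hist1h1d and Hist1h1t, the last of them known as the testis form of H1. The others were the H3 genes Hist1h3a, Hist1h3g and Hist1h3i, the H2A gene Hist2h2ab and the H2B gene Hist3h2bb.

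The kind of probe went with detection. All 13 probes that list several transcripts were well above background on both arrays, against 25 of the 38 that list 1 transcript. Among the 7 probes with all or part of the stem-loop, 3 were measured on both arrays, against 22 of the 31 other probes with 1 transcript. With 1 probe for most genes, the kind of probe and the gene cannot be told apart.

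**Figure D1:**
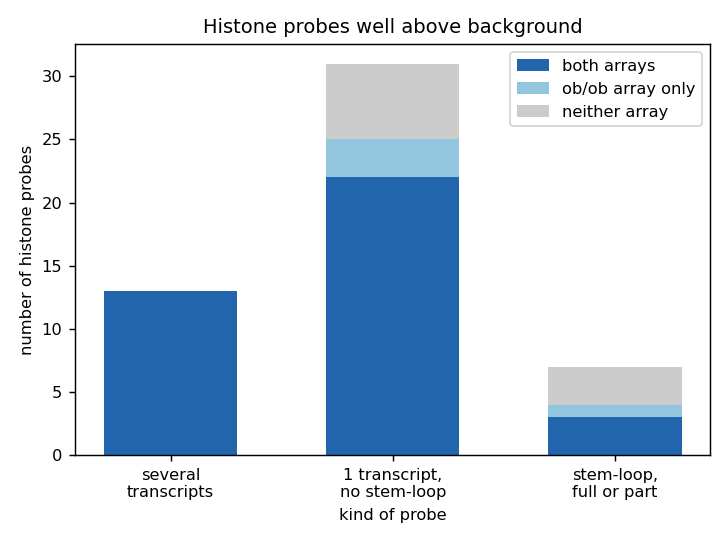
Number of histone probes (vertical axis) by kind of probe (horizontal axis), coloured by whether the probe was well above background on both arrays, on neither, or only on that of the ob/ob mouse. All 13 probes that list several transcripts were measured on both arrays, against 22 of 31 other probes with 1 transcript and 3 of 7 with all or part of the stem-loop.

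The 4 genes above background on the ob/ob array only were all dim there. The H2A gene Hist1h2ab read 12.5 in wild-type and 22.3 in ob/ob, 1.23-fold after scaling. The H2B gene Hist1h2bb read 14.1 and 21.1, 1.03-fold. On the log2 scale these are 0.30 ± 0.45 and 0.05 ± 0.41, with the SD from the software's error of each spot. Both are within that error. The fold sets the scaled ob/ob signal against a wild-type value. That value is the higher of the probe's own signal and the lowest signal flagged as above background on that array, 12.3. The H1 gene Hist1h1a read 14.0 and 18.0, and the H2B gene Hist3h2ba read 5.30 and 16.5. Computed in the same way, the fold was under 1 for both and is not given.

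For the measured genes, each signal was divided by its array's 75th percentile, 989 for wild-type and 1430 for ob/ob, before the difference was taken on the log2 scale. Equal scaled values therefore correspond to an ob/ob signal 1.45-fold the wild-type signal. The error beside a difference is the SD that follows from the software's error of each spot, 0.20 for most measured members and at most 0.30. It covers a single spot and not the spread between mice. As a further scale, the values of 3688 genes with several measured probes had a pooled SD of 0.33 between probes of a gene.

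The histone genes were mostly slightly lower in ob/ob. Their median difference, ob/ob minus wild-type, was −0.38, beside −0.12 for all 18132 genes measured. Values ran from −1.11 to 1.02, and 30 of the 35 genes were below 0. Of the 35, 26 lay below the median of all genes. Only 1 gene was at least 2-fold higher, Hist2h2bb, and 1 at least 2-fold lower, Hist1h1c. The corresponding shares of all genes were 5.82% higher and 2.31% lower, so neither count of members stands away from the background.

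**Figure D2:**
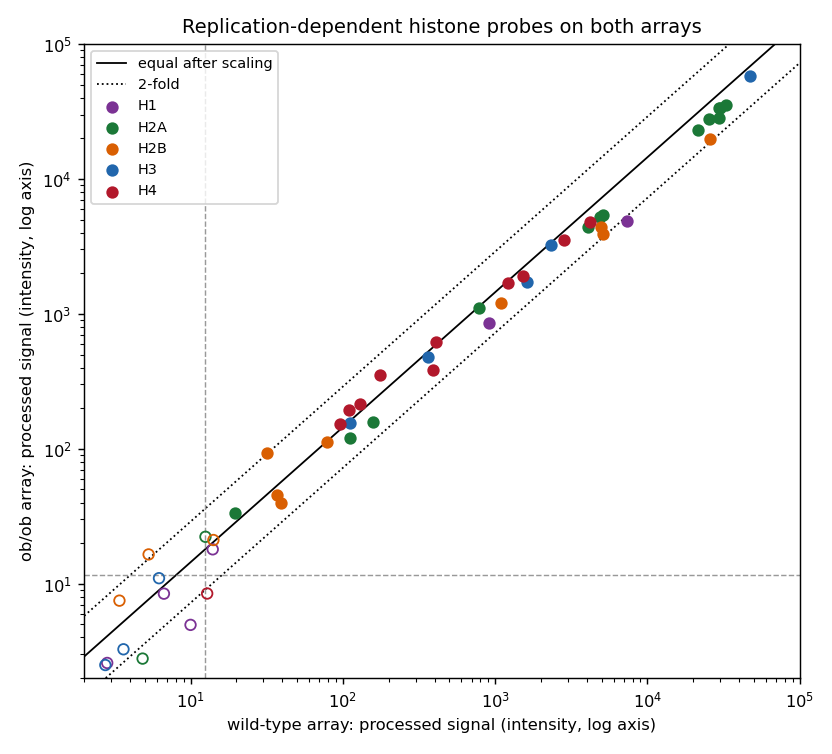
Processed signal of each histone probe in wild-type (horizontal axis) and in ob/ob (vertical axis), both log axes, coloured by class; open circles were not well above background on both arrays. The solid line marks equal scaled values, dotted lines a 2-fold difference, and dashed grey lines the lowest signal flagged as above background; most filled points lie between the solid and the lower dotted line.

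The linker histones gave the lowest class median, −0.87, from 2 genes. H1 binds the DNA that enters and leaves the nucleosome. Hist1h1c (probe at chr13:23832018-23832077, plus strand, mm9) read 7311 in wild-type and 4890 in ob/ob, a difference of −1.11 ± 0.20 (error-model SD, 1 array a group). Scaled, it was 2.16-fold lower in ob/ob. Its probe starts at base 1346 of the listed transcript, and whether that probe reads the stem-loop-ended mRNA was not tested. Hist1h1e read 916 and 862, a difference of −0.62, or 1.54-fold lower. Both genes were lower under all 10 settings tried, with Hist1h1c between −1.39 and −0.91, so the 2-fold mark itself was not always reached. Settings that changed only the filter or the probe rule could not move these 2 genes, which have 1 probe each.

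H2A, which pairs with H2B in the nucleosome, had the most measured genes. The median of its 12 genes was −0.42, and all but Hist1h2ae, at 0.23, lay between −0.59 and −0.34. Hist2h2aa2 read 32708 in wild-type and 35600 in ob/ob, a difference of −0.41. Hist1h2ah read 30050 and 33700 (−0.37), and Hist1h2af read 29403 and 33700 (−0.34). These probes are bright on both arrays and their scaled values are lower in ob/ob by about the same amount.

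The probes with the H2A ends printed above gave one value nearly 4 times. Hist1h2ak read 21461 in wild-type and 23200 in ob/ob, a difference of −0.42. Hist1h2an read 5127 and 5430, a difference of −0.45. With Hist2h2aa2 and Hist1h2af, these 4 differences span −0.45 to −0.34, and with Hist1h2ah added the 5 H2A probes that list several transcripts span the same range. They share sequence, so they are not 5 separate observations of a lower H2A level.

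Several H2A probes with 1 listed transcript gave similar values, while Hist1h2ae and the second probe of Hist1h2ak, both described below, lay nearer 0 or above it. Hist2h2ac read 25539 in wild-type and 27700 in ob/ob (−0.42), and Hist1h2ag read 4058 and 4400 (−0.42). The Hist1h2ag probe is 95.8% identical to that of Hist1h2an over 48 bases, so it too is no separate observation. The file places the Hist2h2ac probe on nearly the same stretch of chromosome 3 as that of Hist2h2aa2, from 96049834 to 96049896. Hist3h2a, on chromosome 11, read 4857 and 5190 (−0.44). Among the dimmer probes, Hist1h2ac read 157 and 158 (−0.53) and Hist1h2aa, known as a testis-enriched form, read 112 and 121 (−0.42).

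Hist2h2aa1, whose probe holds the full stem-loop, had the lowest value of the class, −0.59. Its spot lay in the top 1% of local background on the wild-type array, the only histone spot to do so on either array. Its probe lies at chr3:96049949-96050008 (plus strand, mm9), close to the places given for Hist2h2aa2 and Hist2h2ac. These positions do not separate the genes. Hist1h2ae was the exception of the class, at 19.6 in wild-type and 33.4 in ob/ob, a difference of 0.23 ± 0.30. This value is smaller than its own error, and it was negative in 4 of the 10 settings.

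The H2B genes spread most widely, from −0.93 to 1.02, with a median of −0.45 over 8 genes. Hist1h2bc read 25902 in wild-type and 19600 in ob/ob, a difference of −0.93 ± 0.20, or 1.91-fold lower. Its probe starts at base 632 of the listed transcript, and which form of the mRNA that probe reads was not tested. Hist1h2ba, which encodes the testis form of H2B, read 5092 and 3880, a difference of −0.92 and 1.90-fold lower. Its probe was compared only with other histone probes, and which mRNA it reads in these cells was not tested. Hist1h2bm, whose probe lists 4 transcripts, read 4987 and 4380 (−0.72). In these 3 probes, as in Hist1h1c, the unscaled signal was also lower in ob/ob.

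The other H2B genes below 0 gave smaller differences. Hist1h2be read 1088 in wild-type and 1210 in ob/ob (−0.38), and Hist1h2bg read 39.2 and 39.5 (−0.52). Hist1h2bp read 36.9 and 45.6 (−0.23 ± 0.26), and Hist2h2be read 79.1 and 113 (−0.02). The value of Hist1h2bp is within its error.

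Hist2h2bb (probe at chr3:96074056-96074115, plus strand, mm9) was the only histone gene at least 2-fold higher, at 31.5 in wild-type and 92.4 in ob/ob. The difference was 1.02 ± 0.24, or 2.03-fold. Both signals are within an order of magnitude of the detection limit, and the value differed between settings. With a model-based background correction (normexp, offset 50) and the same scaling it was −0.85, the opposite direction, and with normexp and quantile normalization it was 0.27.

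H3 and H4 form the tetramer at the nucleosome's centre, and both classes lay near the median of all genes. The H3 median was −0.14 over 5 genes, with every gene below 0. Hist1h3d, whose probe lists 4 transcripts, read 47405 in wild-type and 57900 in ob/ob (−0.24). Hist2h3c2 read 1613 and 1730 (−0.43), the lowest of the class. Hist2h3c1 read 364 and 478 (−0.14), Hist1h3c 2321 and 3220 (−0.06), and Hist1h3f 111 and 156 (−0.04). All but Hist1h3d and Hist2h3c2 were within their error-model SD of 0.

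The H4 median was −0.13 over 8 genes, of which 5 were below 0 and 3 above. Hist1h4c read 176 in wild-type and 352 in ob/ob, a difference of 0.47 ± 0.21 and the highest of the class. Hist1h4h read 129 and 214 (0.19), and Hist1h4j read 95.2 and 152 (0.14). Each of these 3 was negative under at least 1 of the settings tried. Below 0, Hist1h4k read 4172 and 4760 (−0.34), Hist2h4 read 2852 and 3520 (−0.23), Hist4h4 read 1521 and 1900 (−0.21), and Hist1h4d read 1208 and 1690 (−0.05). The H4 probes that list several transcripts thus did not share one value as the H2A probes did, and spanned −0.34 to 0.47.

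The middle of the H4 reading frame is shown as it was probed for 2 of these genes, again with differing bases in capitals.

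Hist1h4c: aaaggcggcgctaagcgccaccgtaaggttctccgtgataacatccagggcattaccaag

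Hist1h4k: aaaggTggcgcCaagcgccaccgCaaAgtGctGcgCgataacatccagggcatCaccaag

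The pair differs at 8 of 60 bases. This Hist1h4k probe read 408 in wild-type and 617 in ob/ob, a difference of 0.07, against 0.47 for the Hist1h4c probe.

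**Figure D3:**
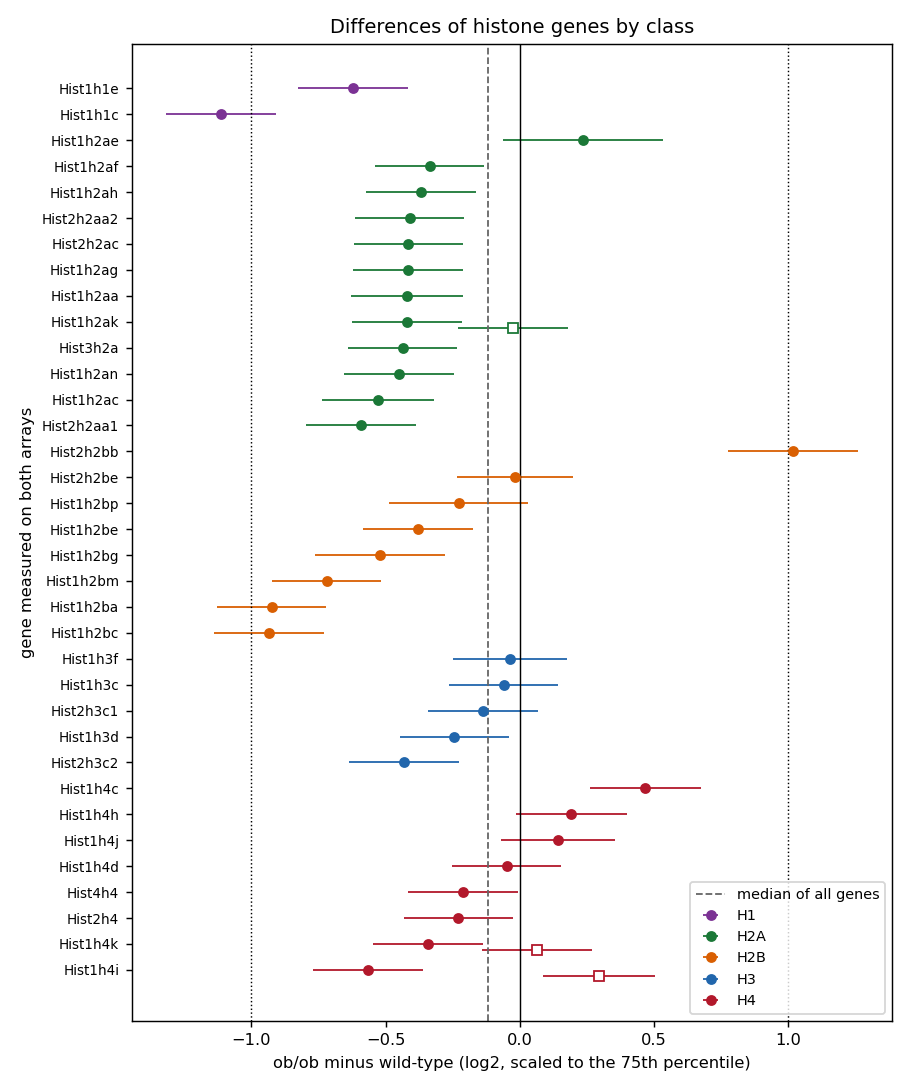
Log2 difference of each measured histone gene, ob/ob minus wild-type (horizontal axis), by class; bars are the software's error-model SD of single spots, open squares a gene's dimmer second probe, the dashed line the median of all genes (−0.12) and dotted lines a 2-fold difference. Most H2A genes sit close to −0.42, while H2B genes run from −0.93 to 1.02 and H4 genes lie on both sides of 0.

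A second probe of the same gene gave another value in each of the 4 genes that had one. For Hist1h4i the brighter probe, which reads like a B1 repeat, was at 394 in wild-type and 385 in ob/ob (−0.56). Its second probe, 460 bases away, was at 110 and 195 (0.29), the opposite direction. For Hist1h4k the probes gave −0.34 and 0.07 at a distance of 216 bases. For Hist1h2ak the second probe, 333 bases from the first, read 781 and 1110, a difference of −0.03 against −0.42. The second probe of Hist2h4, 227 bases away, was at background on both arrays. These gaps, 0.39 to 0.86 where both probes were measured, are larger in size than the median histone difference of −0.38.

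The difference also followed signal strength across the whole array. Genes above the 90th percentile of mean signal had a median of −0.37, those between the median and that percentile −0.16, and those below the median −0.01. The 8 histone genes above the 90th percentile had a median of −0.41, the 14 in the middle range −0.42, and the 13 below the median −0.04. Subtracting the running median of all genes of like signal left a median of −0.13 over the 35 histone genes, with 27 of them still below 0.

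After that subtraction the classes separated differently. H1 remained at −0.74 and H2B at −0.43, while H2A went from −0.42 to −0.19, H3 to −0.07 and H4 to −0.02. Hist1h1c then stood at −0.91, Hist1h2ba at −0.75 and Hist1h2bc at −0.64. The bright H2A probes of Hist1h2af and Hist1h2ah came to −0.01 and −0.04, close to other genes of their brightness.

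**Figure D4:**
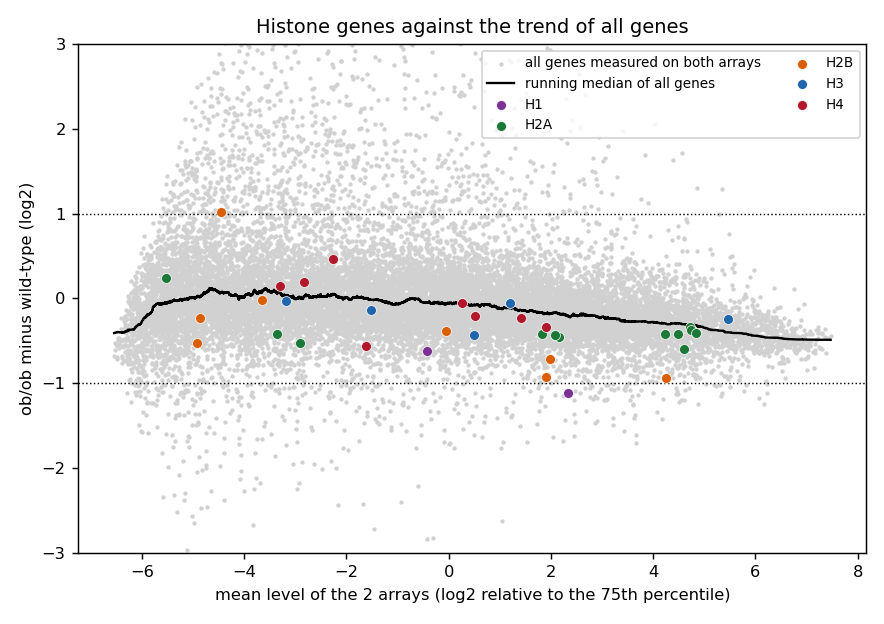
Difference of ob/ob minus wild-type (log2, vertical axis, drawn from −3 to 3) against the mean scaled log2 signal of both arrays (horizontal axis) for all genes measured (grey) and the histone genes (coloured by class). The black running median of all genes falls with signal; bright H2A genes lie near it, while Hist1h1c and several H2B genes lie well below it.

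The genes that make and degrade these mRNAs lay closer to the median of all genes. In a list of 22 genes of histone transcription and mRNA processing, 21 were measured, none was 2-fold different, and the median was −0.15. Slbp, the stem-loop-binding protein, read 2554 in wild-type and 2490 in ob/ob (−0.57), with −0.42 at its other probe. Npat, which drives histone gene transcription at the entry into S phase, was not measured on either array.

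Histone variants that are also made outside S phase mostly have polyadenylated mRNAs, though the form of each mRNA was not tested here. Of 14 such genes on the array 11 were measured, none was 2-fold different, and their median was −0.01. H2afz, which encodes H2A.Z, read 33847 in wild-type and 44000 in ob/ob (−0.15), and H2afx, the H2A form phosphorylated at DNA breaks, read 4073 and 5330 (−0.14). The H3.3 genes H3f3a and H3f3b read 36128 and 47900 (−0.13) and 28404 and 41400 (0.01). These bright probes lay above the running median for their signal, at 0.19 for H2afz and 0.33 for H3f3b. The bright variants H2afj and H2afv, named after their values were seen, lay close to it, at 0.04 and 0.02. Among the replication-dependent genes, the bright H3 probe of Hist1h3d lay above it, at 0.16, and the bright H2A probes at or below it.

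Histone chaperones, which carry histones to DNA, had a median of −0.02 over 21 genes, none of them 2-fold different. In the list of S phase and mitosis genes, 33 of 40 were measured, with a median of −0.09. None of those 33 was at least 2-fold higher. A further 2, named after their values were seen, were above background on the ob/ob array only. Tk1 read 18.6 in wild-type and 288 in ob/ob, and Cdc45 read 11.8 and 22.6. Pcna, the DNA polymerase clamp, read 17703 and 20900 (−0.29), and Ccne1, cyclin E1, read 245 and 336 (−0.08). Mki67, a marker of cycling cells, read 62.3 and 141 (0.65), and its other probe gave 1.73. Top2a and Ccne2 were not well above background on either array.

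Among 9 inhibitors of the cell cycle the median was −0.04 and 2 were at least 2-fold lower. Cdkn2a read 2648 in wild-type and 1390 in ob/ob (−1.46), with −0.59 at another probe, and Cdkn2b read 12947 and 8950 (−1.07), with −0.82 at another. Cdkn1a, the p21 inhibitor, read 12039 and 17375 (0.00), and its other probe gave −0.80.

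**Figure D5:**
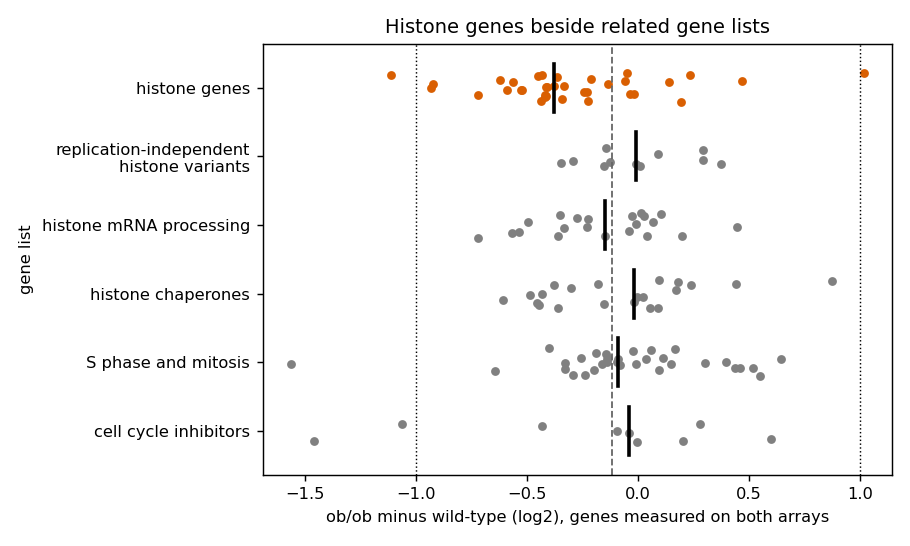
Difference of ob/ob minus wild-type (log2, horizontal axis) for each measured gene of the histone set (orange) and of 5 related lists (grey); black bars are list medians, the dashed line is the median of all genes and dotted lines mark a 2-fold difference. The histone genes have the lowest median of the 6 sets, −0.38, and the points of all sets overlap.

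Markers of other liver cells moved with the same contrast. All 12 endothelial markers were measured on both arrays, among them the sinusoidal receptors Stab2 and Lyve1, and all were within 2-fold, with a median of −0.14. By contrast, 10 of 13 macrophage markers, 9 of 10 hepatocyte markers and 7 of 7 measured stellate cell markers were at least 2-fold higher in ob/ob. In units of each array's 75th percentile, the summed level of the macrophage list was 41.0 in wild-type and 116 in ob/ob, of the hepatocyte list 6.75 and 37.3, and of the stellate list 8.37 and 34.7. Nearly all of the stellate sum came from Dcn, which read 7908 and 47500. Most of the macrophage sum came from Marco, which read 25777 and 90900, so these sums mainly follow single genes. Of the 10 lymphocyte markers 3 were measured, all within 2-fold, and 3 more were above background on the ob/ob array only. These markers of other cells were thus higher on the ob/ob array, and their part in the histone values was not tested. In such bulk samples fewer cells that express a gene and less RNA in each cell cannot be told apart.

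RefSeq promoter windows, from 250 bases before to 50 after the start on GRCm38.p6, were found for 41 of the 47 genes, as 42 windows. Searched on both strands, TATAAA stood in 25 of 42 (59.5%) against 13.6% of all 32851 windows, and CCAAT in 37 of 42 (88.1%) against 37.4%. All windows of H1, H2A, H2B and H3 genes held CCAAT, but only 2 of 7 of H4 genes. The octamer ATTTGCAT, the site of Pou2f1 (Oct1) known from H2B genes, stood in 13 of 42 windows (31.0%) against 1.74% of all. It was in 6 of 9 H2B and 7 of 14 H2A windows and in none of the 19 others. Some windows overlap, and a site in an overlap is counted in each window. Hist1h2aa and Hist1h2ba share an octamer in this way, as do Hist1h2ae and Hist1h2bg, so the H2A and H2B counts are not separate.

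The octamer and its flanks, 30 bases each on the gene's strand, are shown for the 6 H2B genes that hold it, because these genes gave the widest range of differences.

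Hist1h2ba: gaattccccttATTTGCATgcacccagcac

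Hist1h2bb: ttgagtctcttATTTGCATaaagcctttga

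Hist1h2be: agtaagacttaATTTGCATaagactgccta

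Hist1h2bg: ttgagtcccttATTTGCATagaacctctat

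Hist1h2bm: ctctcgtctctATTTGCATaacagcgtgta

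Hist2h2bb: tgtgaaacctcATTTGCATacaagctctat

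On GRCm38.p6 these windows lie at chr13:23934302-23934331 (minus strand) for Hist1h2ba, chr13:23746633-23746662 (plus) for Hist1h2bb and chr13:23586019-23586048 (minus) for Hist1h2be. Those of Hist1h2bg and Hist1h2bm lie at chr13:23571330-23571359 and chr13:21722008-21722037, and that of Hist2h2bb at chr3:96269641-96269670, all on the plus strand. The octamer ended 17 to 156 bases before the start. The 5 of these genes that were measured on both arrays gave differences from −0.92 (Hist1h2ba) to 1.02 (Hist2h2bb), which is nearly the whole H2B range.

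Some members are divided from a neighbour by a single short promoter. In 3 pairs an H2A and an H2B gene on opposite strands had windows that overlap by 220 to 279 bases. Hist1h2aa and Hist1h2ba gave −0.42 and −0.92, Hist1h2ae and Hist1h2bg 0.23 and −0.52, and Hist1h2an and Hist1h2bp −0.45 and −0.23. The genes of a pair differed from each other by 0.22 to 0.76 on the log2 scale.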

How the data were processed

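RNA of 1 wild-type and 1 ob/ob mouse was labelled with Cy3 and read on a 1-colour Agilent array, 1 array each. Per the file headers, each deposited scanner file gives a linear intensity per spot, with background subtracted and spatial trends removed by Agilent Feature Extraction 11.0.1.1, a version also named in the submitters' processing notes, and probe coordinates on mm9. The authors' deposited table holds 24868 features, each a ratio of the processed intensity to its array's 75th percentile. This was settled from the files: the quotient varied by 0.98% and 1.42% of its median, the column medians are 0.614 and 0.648, and no per-gene centring was found. Flags, positions and names (unit other) also come from the deposited files.

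Control spots were left out, spots of 1 probe averaged, and log2 of the processed signal minus log2 of the array's 75th percentile taken. The brightest measured probe stood for a gene. Of the 51 members, 50 were named through accessions in the RefSeq table of GRCm38.p6, and the array's older symbols are printed. No member was saturated or flagged as an outlier. Every member above background on either array could be named, and from the other lists every gene at least 2-fold different plus 12 others whatever their values (Slbp, Npat, Mki67, Top2a, Pcna, Ccne1, Ccne2, H2afx, H2afz, H3f3a, H3f3b, Cdkn1a). An item that this rule would name is not reported here. Members and lists were chosen with earlier results of these data known. With 1 array a group no test was run, and precision is limited by the array number; 250 probes spotted 10 times had a median SD of 0.05 between single-spot differences. The steps were tested on simulated data with known differences above 2-fold and no trend with signal strength. Differences as small as those of most members were not covered. Python 3.11.15, pandas 2.3.3, numpy 2.4.6, R 4.3.3 and limma 3.58.1 (normexp, quantile) were used. The 9 alternatives were other scalings and backgrounds, the authors' table, other filters and probe rules, and centring on the level.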

Additional observations from a re-analysis of the deposited data

How the results depend on the processing

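The median of the histone genes was negative, and below that of all genes, in all 10 settings, and 22 to 27 of the histone genes lay below the median of all genes. It was −0.66 with scaling on the array median, −0.20 with normexp and quantile normalization and −0.13 centred on the level. Scaling on the array median moved the median of all genes from −0.12 to −0.40, and normexp with the 75th percentile moved it to −0.29. The split of all genes at least 2-fold higher against lower went from 1056 against 418 to 767 against 979 with the first and to 367 against 3855 with the second. No histone gene (0 of 35) was at least 2-fold higher with array-median scaling, quantile normalization, either normexp setting or centring on the level. Across those settings 2.02% to 5.97% of all genes were. When probes above background on 1 array were admitted, 2 of 39 histone genes were, beside 10.5% of all genes. At least 2-fold lower were 3 with scaling on the array median, beside 5.4% of all genes, and 6 under normexp with 75th-percentile scaling, beside 21.3%. The count was 0 with quantile normalization (3.07% of all genes), normexp with quantile normalization (0.717%) and centring on the level (1.83%). Under normexp with 75th-percentile scaling Hist2h2bb reversed to −0.85, and the cause was not tested. Scaling on the array median gave −1.15 for H1. The H2A median was −0.70 with that scaling, −0.21 with quantile normalization, −0.27 with normexp at the 75th percentile, −0.21 with normexp at quantiles, and −0.19 centred on the level. The list of mRNA processing genes was at −0.43 with scaling on the array median, and that of S phase and mitosis at −0.37 (−0.17 under normexp with 75th-percentile scaling). Among the 35 genes, 26 kept their sign in every setting. Settings that changed only filters or probe rules could drop but not move a gene with 1 measured probe. The authors' values moved no gene by more than its error.

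No paired analysis was possible because each group holds 1 array. The 1 array in each group limits the precision of every value.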
